A study of Homo sapiens with 9 samples.

Results

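Metallothioneins are small cysteine-rich proteins that bind zinc, copper and cadmium. The genes described are MT2A, MT1E, MT1F, MT1G, MT1M and MT1X, taken from the deposited expression table by symbol alone. All 6 symbols were found among the 60606 genes of the table. RNA-seq had been carried out on 3 libraries each of U87, GSCs and Diff cells, which made 9 libraries. The parental U87 line, established from a human glioblastoma, was kept in serum-containing medium. GSCs are stem cells derived from U87 that were irradiated in 13 cycles of 5 Gy and kept in serum-free medium with B27, EGF and bFGF. Diff cells are the progeny of those irradiated GSCs after transfer to serum-containing medium, taken from selected clonal communities. U87 received 0 cycles, and no unirradiated stem cells were among the groups, so that irradiation, stem cell culture and medium cannot be told apart in GSCs against U87. Diff cells and U87 shared serum-containing medium, and differed in irradiation, in passage through the stem cell state and in clonal selection.

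Metallothionein proteins hold metal ions in clusters built by their cysteines, buffer free zinc and copper, and can react with oxidants. The human genes lie side by side on the long arm of chromosome 16. The zinc-sensing transcription factor MTF1 binds short metal response elements in their promoters, and glucocorticoids also induce several of them. MT3 is the form known from brain, whereas MT2A is the form most tissues express.

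Marker genes gave a mixed picture of the labelled cell states. Of the glioma stem cell markers, FABP7 was 0.731 TPM (transcripts per 1000000) in U87, 4.91 in GSCs and 2.86 in Diff cells, while SOX2 stood at 0.0383, 0.879 and 0.153 TPM and PROM1, which encodes CD133, at 0.171, 0.507 and 0.0236 TPM in the same order. SOX2 and PROM1 were thus highest in GSCs, at levels too low to be tested. POU3F2, also on the stem marker list, was instead highest in Diff cells, at 0.181 TPM in U87, 3.25 in GSCs and 6.48 in Diff cells. Of the 6 stem markers 4 were tested, of which 2 were called higher and 0 lower in GSCs, and 2 higher and 1 lower in Diff cells, each against U87. Of all genes tested, 9.52% were called higher and 7.53% lower in GSCs, and 5.92% and 6.36% in Diff cells. No stem marker was called in Diff cells against GSCs by limma, beside 8.01% of all genes. At an adjusted p under 0.05 alone 1 was higher and 3 lower, as at an unadjusted one, beside 15% and 19.8% of all genes at the adjusted p. NES, which encodes nestin, was lower in GSCs (22.6 TPM) than in U87 (33.0 TPM). The neuronal marker MAP2 stood at 7.95 TPM in U87, 8.22 in GSCs and 21.7 in Diff cells, and was the only called gene of the 2 neuronal markers tested. It was called higher in Diff cells against U87 and against GSCs, beside 5.92% and 2.66% of all genes called higher. TUBB3, the other neuronal marker tested, stood at 3.74 TPM in U87, 4.66 in GSCs and 5.22 in Diff cells. DCX, NEFL and RBFOX3, also listed as neuronal, reached at most 0.0228, 0.0732 and 0.164 TPM in any library and were not tested. Of 3 markers tested from the astroglial and mesenchymal glioma list, VIM alone was called, with group means of 1640 TPM in U87, 1214 in GSCs and 616 in Diff cells. It was called lower in Diff cells against U87 only, beside 6.36% of all genes. In the same group order GFAP stood at 2.29, 0.809 and 0.909 TPM and CD44 at 405, 427 and 296 TPM. Markers of other cell types gave PTPRC at most 0.137 TPM in any library and HBB at 0 in the group means. Beside 17.1%, 12.3% and 8.01% of all genes in the 3 comparisons, limma called neither of the 2 tested genes of that list. Of these, the endothelial marker PECAM1 stood at 2.77 TPM in U87, 6.25 in GSCs and 2.92 in Diff cells, and passed the adjusted p alone in GSCs against U87 (log2 difference 0.97, limma adjusted p = 0.0056) and in Diff cells against GSCs (−0.90, limma adjusted p = 0.012). Its part in the results was not tested. The share of mitochondrial transcripts per library was 25.9% to 31.8%, and that of the noncoding RNA RN7SL1 was 5.73% to 9.79%. Depth, which TPM does not keep, was put at 18.5 to 25.1 times 1000000 fragments for a library by approximation.

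The 6 genes hold similar coding sequences. In GENCODE 29 (GRCh38) they occupy a stretch of chromosome 16 in the order MT2A (chr16:56608199-56609497, plus strand), MT1E (chr16:56625475-56627112, plus strand), MT1M (chr16:56632233-56633986, plus strand), MT1F (chr16:56657694-56660698, plus strand), MT1G (chr16:56666731-56668065, minus strand) and MT1X (chr16:56682424-56684196, plus strand). The coding sequences of the 4 abundant members, read from the reference and its annotation, are shown because the comparison rests on telling them apart. Without the stop codon each is 183 bases long, or 61 codons, of which 20 are cysteine codons. Capitals mark the 29 positions at which the 4 are not all alike.
MT2A: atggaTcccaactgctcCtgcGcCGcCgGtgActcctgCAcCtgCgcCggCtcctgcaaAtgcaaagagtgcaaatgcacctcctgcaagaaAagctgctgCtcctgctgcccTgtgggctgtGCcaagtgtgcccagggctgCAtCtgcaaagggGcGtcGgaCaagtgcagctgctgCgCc
MT1E: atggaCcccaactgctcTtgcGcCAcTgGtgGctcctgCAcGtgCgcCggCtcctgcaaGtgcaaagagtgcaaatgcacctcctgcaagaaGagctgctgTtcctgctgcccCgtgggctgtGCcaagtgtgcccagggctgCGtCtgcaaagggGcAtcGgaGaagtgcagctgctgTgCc
MT1F: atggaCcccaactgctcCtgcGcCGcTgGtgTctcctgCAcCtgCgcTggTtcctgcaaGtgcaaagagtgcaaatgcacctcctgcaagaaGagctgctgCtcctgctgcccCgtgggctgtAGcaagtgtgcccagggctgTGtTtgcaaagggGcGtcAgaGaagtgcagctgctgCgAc
MT1X: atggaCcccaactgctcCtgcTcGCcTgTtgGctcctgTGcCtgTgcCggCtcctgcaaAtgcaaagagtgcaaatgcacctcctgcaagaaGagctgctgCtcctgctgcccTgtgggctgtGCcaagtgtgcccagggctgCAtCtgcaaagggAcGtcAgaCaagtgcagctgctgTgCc
Over all 6 genes, pairs of coding sequences were identical at 88.5% of positions (MT1F and MT1X) to 95.1% (MT2A and MT1G). The transcripts as a whole are more distinct. Of all 100-base windows of the exons, none of MT2A, MT1E, MT1F, MT1G or MT1M recurred in another gene, whereas 11.3% of those of MT1X recurred in the overlapping same-strand gene AC026461.1, listed at 0 in every library. At 50 bases, the share that recurred elsewhere was 1.22% for MT1F, 3.02% for MT2A, 7.10% for MT1E, 9.87% for MT1M, 16.5% for MT1G and 18.3% for MT1X. How reads that fit several of these genes had been counted is not given in the sources used here, so the values carry that uncertainty, those of MT1X, MT1G and MT1M the most by these shares.

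Promoter sequences of 2 members, MT2A and MT1X, were held in the RefSeq table (GRCh38.p14). The 250 bases before the RefSeq start of each are shown, on the plus strand, for the density of metal response elements. RefSeq places these starts downstream of the lower ends given above from GENCODE 29, so that the MT2A window lies within the GENCODE span and the MT1X window reaches into it. Capitals mark the core of that element, searched as TGCACNC or TGCGCNC on both strands.
MT2A, chr16:56608334-56608583: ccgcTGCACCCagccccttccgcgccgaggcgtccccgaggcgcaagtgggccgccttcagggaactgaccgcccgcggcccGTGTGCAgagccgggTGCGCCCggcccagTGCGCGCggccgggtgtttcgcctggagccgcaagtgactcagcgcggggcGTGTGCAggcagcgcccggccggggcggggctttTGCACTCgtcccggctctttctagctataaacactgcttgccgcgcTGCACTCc
MT1X, chr16:56682220-56682469: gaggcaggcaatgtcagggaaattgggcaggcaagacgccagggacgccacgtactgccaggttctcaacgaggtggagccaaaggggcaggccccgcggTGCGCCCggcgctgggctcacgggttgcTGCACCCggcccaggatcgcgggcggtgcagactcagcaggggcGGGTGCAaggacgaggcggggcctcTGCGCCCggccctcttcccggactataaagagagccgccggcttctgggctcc
The MT2A window held 7 matches and the MT1X window held 4. At least 1 match stood in 24.8% of 35116 promoters of the same length, at least 4 in 0.37%, and at least 7 in 0.0313%. Of the metallothionein genes with an entry but little or no RNA here, MT1H had 8 matches, and MT1B and MT4 had 3 each. Both windows also held the TATA motif TATAAA, found in 10.7% of promoters, at 29 bases before the start in MT2A and 30 in MT1X. These matches describe letters in a window, and binding was not measured.

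MT2A supplied most metallothionein RNA in every library. The TPM scale divides by a length per gene, and the lengths used by the authors are not given in the sources used here. In the annotation used here for gene positions, the exonic lengths of MT2A (1299 bases) and MT1X (1773 bases) cover the whole gene. Levels, shares and rankings between genes therefore depend on the annotated lengths. The 6 genes together came to 7507 TPM ± 675 in U87, 6798 ± 1511 in GSCs and 5504 ± 688 in Diff cells (SD, n = 3 each). That was 0.751%, 0.680% and 0.550% of the RNA measured. MT2A made up 92.7% ± 0.453 of this sum in U87, 95.1% ± 0.778 in GSCs and 92.6% ± 0.833 in Diff cells (SD, n = 3). The gene ranked between place 13 and place 18 of all genes in each of the 9 libraries. After it came MT1E, with 188 to 463 TPM over the 9 libraries, then MT1X (34.6 to 84.5 TPM) and MT1F (22.01 to 62.7 TPM), then MT1M with at most 4.71 TPM. MT1G was listed at 0 in 8 libraries. In bulk RNA, fewer cells expressing a gene and less RNA per cell cannot be told apart, and this holds for every level given here.

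**Figure D1:**
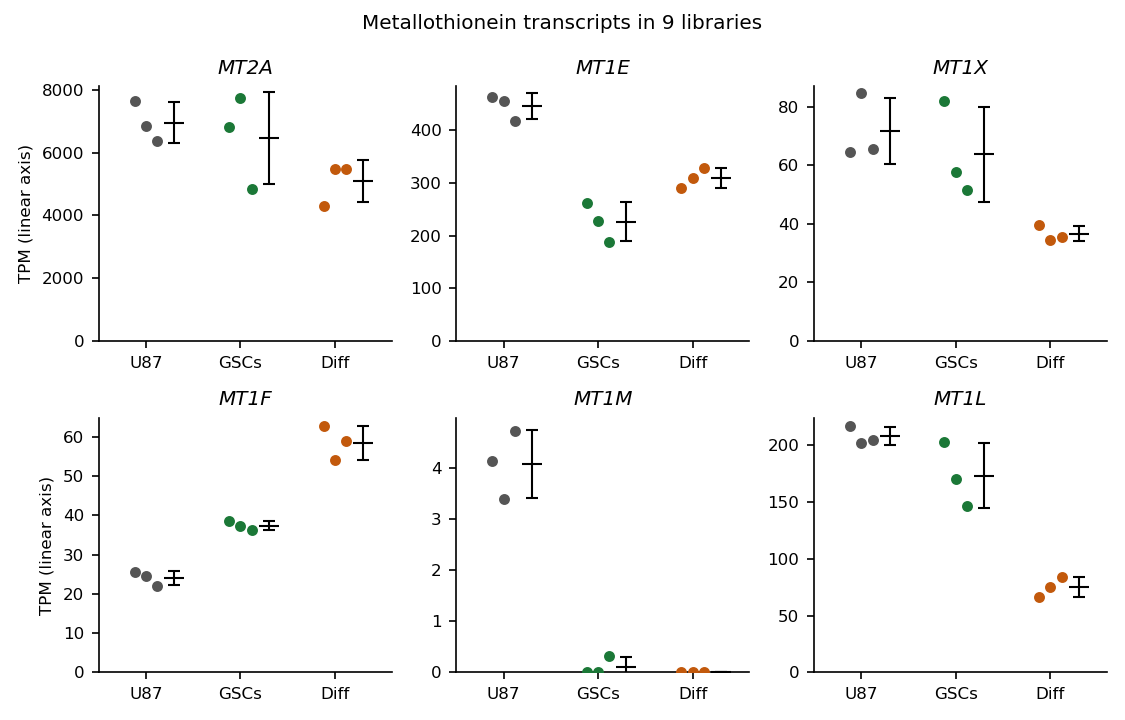
Expression of 5 metallothionein genes and of the transcribed pseudogene MT1L in U87, GSCs and Diff cells, as TPM on a linear axis with its own range in each panel. Points are the 3 libraries of a group and bars the mean ± SD. The 3 groups of MT1F stand apart from each other in rising order, those of MT1E place GSCs lowest, and Diff cells stand below both other groups for MT1X and MT1L.

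MT2A overlapped between U87 and GSCs. Its values were 7666, 6844 and 6376 TPM in U87, 6824, 7738 and 4848 TPM in GSCs, and 4317, 5498 and 5485 TPM in Diff cells. The GSCs libraries overlapped both other groups, while each Diff library lay below each U87 library. With limma, a linear model fitted over 22909 genes with a mean above 1 TPM on log2(TPM + 1), the difference of GSCs from U87 was −0.13 (95% interval −0.54 to 0.28, adjusted p = 0.59). This direction turned to 0.39 under quantile normalization (adjusted p = 0.0245) and to 0.07 without GSCs replicate 3 (adjusted p = 0.729). Diff cells differed from U87 by −0.45 (interval −0.86 to −0.05, adjusted p = 0.0768), which missed the threshold of 0.05, and over all alternatives the adjusted p lay between 0.0211 and 0.221. Diff cells differed from GSCs by −0.33 (interval −0.73 to 0.08, adjusted p = 0.20), which became −0.68 under quantile normalization (adjusted p = 0.00257), −0.52 without GSCs replicate 3 (adjusted p = 0.0239), −0.21 without Diff replicate 1 and −0.18 without GSCs replicate 2. The order of the means was U87, GSCs and Diff cells. Neighbours in that order did not pass the test as deposited, and both pairs passed the adjusted p under quantile normalization, with GSCs then highest.

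MT1E, the main MT1 form in these cells, was lowest in GSCs. It measured 463, 456 and 417 TPM in U87, 262, 228 and 188 TPM in GSCs, and 291, 309 and 329 TPM in Diff cells. No library of any group reached the range of another group. GSCs held 0.508 times the mean level of U87, a log2 difference of −0.99 ± 0.111 (SE) with a limma adjusted p of 0.000107. A gene was called only if its adjusted p was under 0.05 and its log2 difference beyond 1 in size, so that MT1E passed the test and stayed just inside the fold limit. Diff cells lay between the other groups, at 0.695 times U87 (log2 difference −0.52 ± 0.111, limma adjusted p = 0.00544) and 1.37 times GSCs (0.46 ± 0.111, limma adjusted p = 0.0121).

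MT1X was lowest in Diff cells. Its libraries read 64.5, 84.5 and 65.6 TPM in U87, 82.0, 57.7 and 51.4 TPM in GSCs, and 39.4, 34.6 and 35.6 TPM in Diff cells. U87 and GSCs overlapped, and all Diff libraries lay below all others. The log2 difference of GSCs from U87 was −0.18 with an interval of −0.57 to 0.21 (limma adjusted p = 0.412). It became −0.38 without GSCs replicate 1 (limma adjusted p = 0.0457), −0.04 without GSCs replicate 3 and −0.06 without U87 replicate 2. Diff cells held 0.511 times the level of U87 (log2 difference −0.94 ± 0.17, limma adjusted p = 0.00228) and 0.574 times that of GSCs (−0.76 ± 0.17, limma adjusted p = 0.00864). Both differences passed the adjusted p and neither reached the fold limit. Without U87 replicate 1, MT1X passed that limit as well in Diff cells against U87, at −1.01.

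MT1F, also a zinc-binding MT1 form, was the member whose level stood highest in Diff cells. It measured 25.7, 24.4 and 22.01 TPM in U87, 38.6, 37.4 and 36.3 TPM in GSCs, and 62.7, 54.0 and 59.0 TPM in Diff cells. The 3 groups were fully apart, with U87 lowest. MT1F rose 2.43-fold in Diff cells against U87, a log2 difference of 1.25 ± 0.0758 with a limma adjusted p of 3.72e-06. GSCs lay between, 1.56-fold above U87 (0.62 ± 0.0758, limma adjusted p = 0.000174), and Diff cells 1.56-fold above GSCs (0.63 ± 0.0758, limma adjusted p = 0.00035). Between 320 and 1017 fragments per library, as approximated from the steps of low TPM values, lay behind these levels. Scaling did not turn this direction, since the Diff difference from U87 lay between 1.19 and 1.31 over 19 alternatives and that of GSCs from U87 between 0.56 and 0.67.

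MT1M was detected in U87 and was at or near 0 elsewhere. It measured 4.13, 3.39 and 4.71 TPM in U87, from about 26, 22 and 35 fragments. GSCs were listed at 0, 0 and 0.326 TPM, the last from about 2 fragments, and Diff cells at 0 in all 3 libraries. No U87 library reached the range of either other group. The gene passed the filter on mean TPM only through U87, so a difference was built into its being tested. limma gave adjusted p = 1.43e-05 for GSCs against U87 and 1.45e-05 for Diff cells against U87, and no fold is given because its size follows the pseudocount.

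MT1G, a form known for loss of expression in several tumours, was listed at 0.364 TPM in Diff replicate 2, from about 2 fragments, and at 0 in the other 8 libraries. It was not tested. These data therefore hold no comparison for MT1G at this depth.

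**Figure D2:**
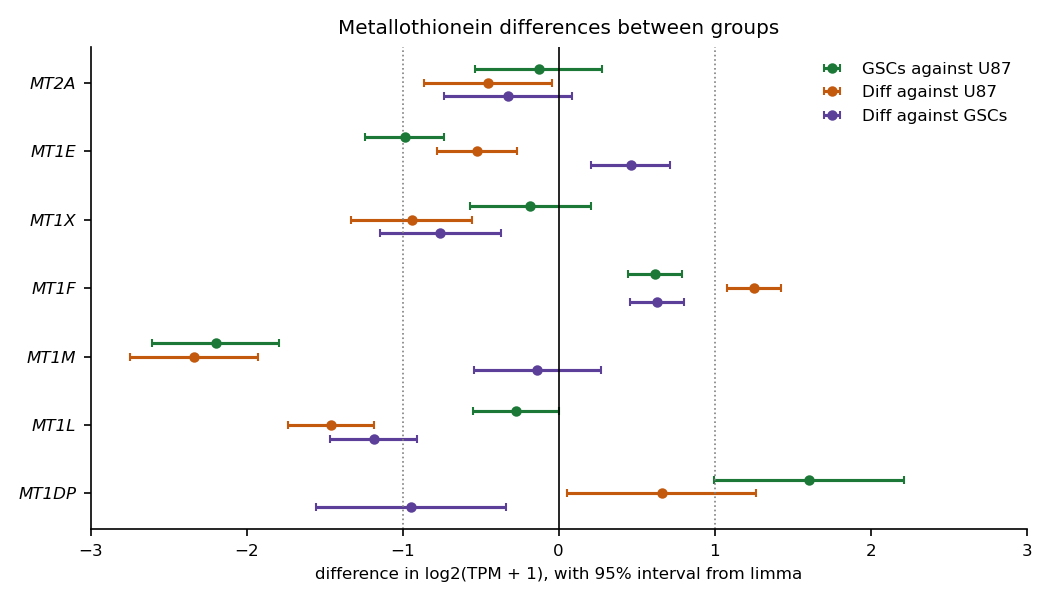
Differences between groups in log2(TPM + 1) for 5 members and for the pseudogenes MT1L and MT1DP, with 95% intervals from limma; dotted lines mark the fold limit of 1. MT1F lies right of 0 in all 3 comparisons, MT1E and MT1X lie left of 0 in Diff cells against U87, and the position of MT1M follows the pseudocount, as does that of MT1DP in part. The interval of MT2A covers 0 for GSCs against U87, where its sign turned under quantile normalization.

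Of the 6 members, 5 passed the filter on low values, MT1M only through U87. In GSCs against U87, 0 members were called higher and 1 lower (MT1M), while 17.1% of all genes tested were called in either direction, 9.52% higher and 7.53% lower. At an adjusted p under 0.05 alone, 1 member was higher (MT1F) and 2 lower (MT1E and MT1M), beside 25.3% and 23.3% of all genes, or 48.6% in either direction. Comparing Diff cells with U87, 1 was called higher (MT1F) and 1 lower (MT1M), beside 12.3% of all genes, 5.92% higher and 6.36% lower. There 1 member was higher and 3 lower at the adjusted p alone, beside 18.9% and 20.5% of all genes, or 39.4% in either direction. Comparing Diff cells with GSCs, 0 were called in either direction by limma at both limits, beside 8.01% of all genes, 2.66% higher and 5.36% lower. By the adjusted p alone, 2 were higher (MT1E and MT1F) and 1 lower (MT1X) in that comparison, beside 15% and 19.8% of all genes, or 34.8% in either direction. At an unadjusted p under 0.05 the comparison of Diff cells with GSCs again had 2 higher and 1 lower. Library values of the groups compared did not overlap for 55.8%, 55.2% and 46.7% of all genes tested, so groups that stand apart, as those of MT1E and MT1F do, were common. With MT1M set apart, the members called were 0, 1 and 0 in the 3 comparisons. The medians over the 5 tested members were −0.18, −0.52 and −0.14 on the log2 scale, beside 0.02, −0.04 and −0.06 over all genes tested. The last of these was the value of MT1M itself, and over the other 4 members, a choice made after seeing the data, the medians were −0.16, −0.49 and 0.07. GSCs and Diff cells were compared with the same U87 libraries, so their differences from U87 are not independent of each other.

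Proportions among the members were compared within libraries. A ratio within a library does not depend on how that library was scaled, and 6 ratios were compared in 3 pairs of groups. MT1F as a percent of MT1E, both in TPM, was 5.54%, 5.36% and 5.28% in U87, 14.7%, 16.4% and 19.3% in GSCs, and 21.5%, 17.5% and 17.9% in Diff cells. U87 was apart from both other groups, which overlapped. The ratio was 3.09-fold higher in GSCs and 3.50-fold higher in Diff cells than in U87, each with an exact permutation p of 0.1 (two-sided, n = 3 against 3, 0.12 after Benjamini-Hochberg adjustment over 18 comparisons), which is the smallest p this design allows. Diff cells and GSCs differed 1.13-fold (exact permutation p = 0.4, adjusted 0.45).

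MT1F as a percent of MT1X set Diff cells apart. It was 39.8%, 28.9% and 33.5% in U87, 47.1%, 64.7% and 70.7% in GSCs, and 159%, 156% and 166% in Diff cells. In Diff cells alone MT1F exceeded MT1X in TPM, in all 3 libraries. The ratio was 4.74-fold higher in Diff cells than in U87 (exact permutation p = 0.1, adjusted 0.12). MT1E as a percent of MT2A was 6.42% ± 0.326 in U87, 3.56% ± 0.531 in GSCs and 6.12% ± 0.576 in Diff cells (SD, n = 3). The GSCs values, from 2.95% to 3.89%, lay below all others, whereas U87 and Diff cells overlapped (exact permutation p = 0.6). MT1X as a percent of MT1E was in turn highest in GSCs, at 27.9% ± 3.03, against 16.1% ± 2.33 in U87 and 11.9% ± 1.46 in Diff cells (SD, n = 3). All 3 groups were apart in that ratio.

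Libraries of 1 group also varied among themselves, and members did so unequally. The coefficient of variation within GSCs was 22.8% for MT2A, 25.4% for MT1X, 16.3% for MT1E and 3.03% for MT1F. GSCs replicate 3 held the lowest value of its group for each of these genes. Over the 9 libraries, the log2 level of MT1F had a Pearson r of −0.65 with MT2A, −0.48 with MT1E and −0.82 with MT1X, while MT2A and MT1X had 0.68. These coefficients describe 9 points in 3 groups that share library and scaling.

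Of the other metallothionein genes, none was expressed well enough to be tested. MT3 was present at 2.43, 1.29 and 1.66 TPM in U87, at 0.0865, 0 and 0 TPM in GSCs, and at 0 in Diff cells. The U87 values came from about 16 to 29 fragments per library, and those of the other groups from at most 1. MT1H was listed at 0.201 and 0.362 TPM in 2 GSCs libraries and at 0 elsewhere. MT1A, MT1B, MT1HL1 and MT4 were at 0 in all 9 libraries.

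MT1L, a transcribed pseudogene between MT2A and MT1E (chr16:56617476-56618818, plus strand), had a higher mean TPM than MT1X and MT1F in each group. This order depends on the lengths divided by, as its exonic length is 411 bases, against 1773 for MT1X and 1889 for MT1F. By approximate fragments MT1L was below MT1X in every library, with 589 against 756 in U87 replicate 1. MT1F had 321 fragments there. In Diff replicate 1 MT1L had 234 fragments, MT1X 601 and MT1F 1017. MT1L measured 217, 202 and 204 TPM in U87, 203, 170 and 146 TPM in GSCs, and 66.3, 75.2 and 83.9 TPM in Diff cells. Diff cells stood below both other groups, and 1 GSCs library fell within the U87 range. It fell by 1.46 on the log2 scale in Diff cells against U87 (limma adjusted p = 2.35e-05) and by 1.19 against GSCs (limma adjusted p = 0.000147). The difference of GSCs from U87 was −0.27 (interval −0.55 to 0.00, limma adjusted p = 0.0949). Relative to MT1E, its neighbour, MT1L was 46.7% ± 2.34 in U87, 76.4% ± 1.56 in GSCs and 24.2% ± 1.39 in Diff cells (SD, n = 3), with all groups apart.

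MT1DP, another transcribed pseudogene of the cluster, was highest in GSCs at 6.24, 5.43 and 6.92 TPM, against 2.38, 1.03 and 0.907 TPM in U87 and 2.00, 4.11 and 2.37 TPM in Diff cells. It was called higher in GSCs against U87 (log2 difference 1.61 ± 0.267, limma adjusted p = 0.00108), but with about 1 to 8 fragments per library. The processed pseudogene MT2P1, a copy of MT2A outside the cluster, was called higher in the same comparison (1.54 ± 0.559, limma adjusted p = 0.0482), having passed the filter only through GSCs, at 4.76, 2.86 and 2.73 TPM in GSCs against 0, 2.36 and 0 TPM in U87. At most 6 fragments per library lay behind it, and 15.7% of its 50-base windows recur in other genes, MT2A and MT1E among them. Of the 9 pseudogenes found, 3 were tested, of which the GSCs comparison with U87 called 2 higher and 0 lower, and the comparisons of Diff cells with U87 and with GSCs called 0 higher and 1 lower each. Among all genes tested, 17.1%, 12.3% and 8.01% were called in these comparisons. MT1XP1, MT1P3 and MT1JP reached at most 1.87, 1.63 and 0.145 TPM in any library, and MT1CP, MT1IP and MT1P1 were at 0.

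Genes that flank the metallothionein cluster were examined for differences that would cover the region. Of 16 flanking genes found in the table, from NUDT21 to POLR2C, 14 were tested. By limma 0 were called in each of the 3 comparisons, beside 17.1%, 12.3% and 8.01% of all genes. At an adjusted p under 0.05 alone, 2 were higher and 4 lower in GSCs against U87, then 2 and 3 for Diff cells against U87, and 4 and 2 in Diff cells against GSCs, beside 48.6%, 39.4% and 34.8% of all genes. At an unadjusted p under 0.05 the counts were 2 and 5, 3 and 4, and 6 and 3. Their log2 differences ran from −0.95 (HERPUD1) to 0.64 (CETP) in GSCs against U87, from −0.76 (HERPUD1) to 0.42 (COQ9) in Diff cells against U87, and from −0.90 (CETP) to 0.43 (CIAPIN1) in Diff cells against GSCs. Their medians were −0.11, −0.03 and −0.06, beside 0.02, −0.04 and −0.06 over all genes. Within the cluster, MT1F lies 49.5 kb from the lower end of MT2A, with MT1E at 17.3 kb and MT1X at 74.2 kb on either side of it, and stood on the other side of 0 from both in Diff cells against U87.

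**Figure D3:**
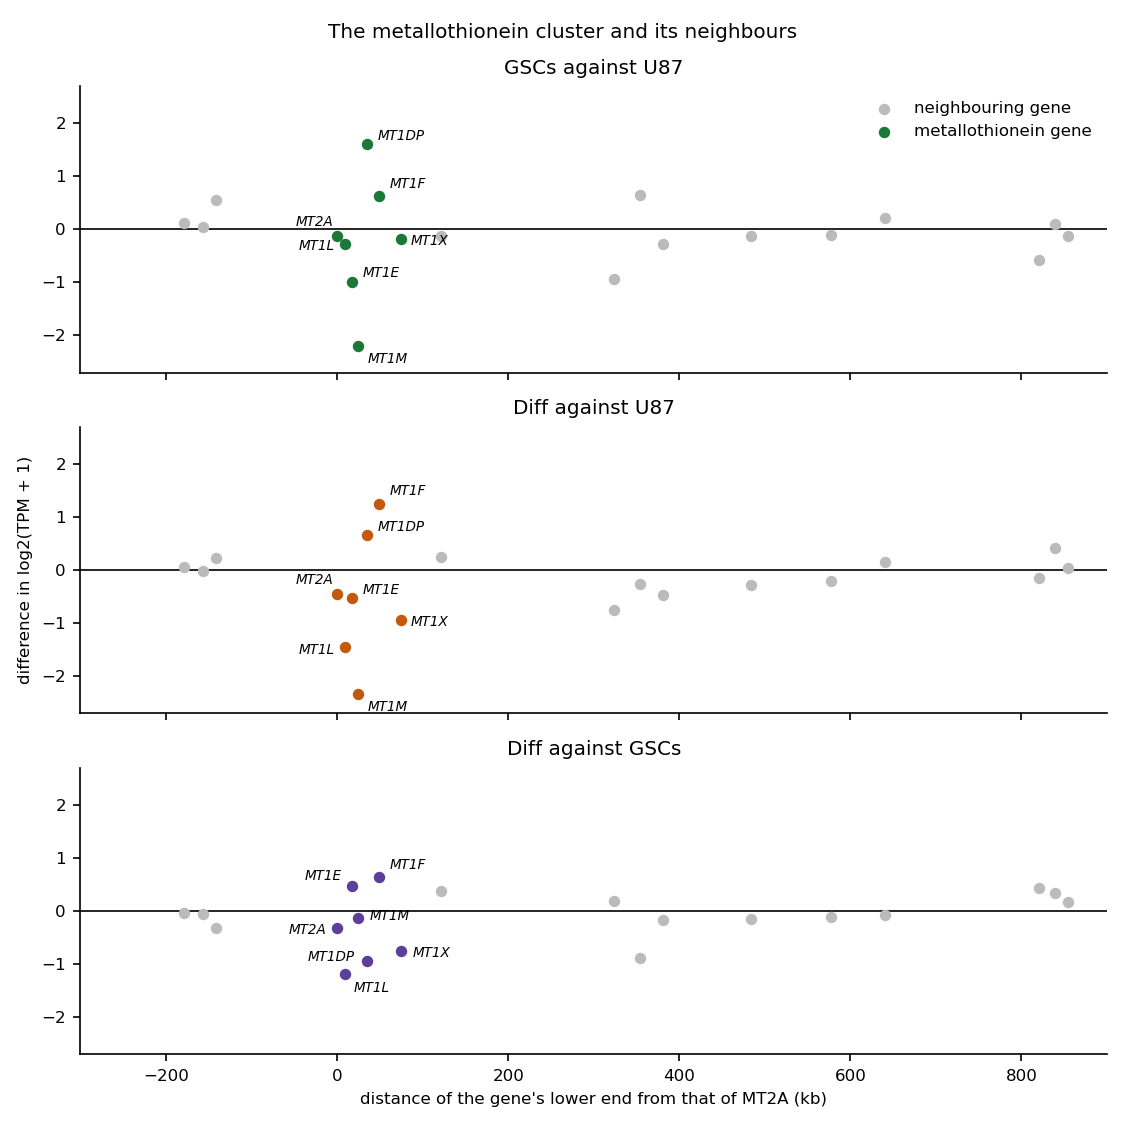
Difference in log2(TPM + 1) of each tested gene by its distance in kb from the lower end of MT2A, for the 3 comparisons; coloured points are metallothionein genes and pseudogenes, grey points flanking genes. Metallothionein genes lie on both sides of 0 within 74.2 kb, and the flanking genes shown lie between −0.95 and 0.64. MT2A changes sign in GSCs against U87 under quantile normalization, and the height of MT1M follows the pseudocount.

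MTF1, the transcription factor that activates metallothionein genes when zinc rises, differed by less than the fold limit in all comparisons. It measured 21.3, 19.4 and 20.9 TPM in U87, 15.2, 15.8 and 16.9 TPM in GSCs, and 19.1, 17.5 and 20.7 TPM in Diff cells. GSCs lay below both other groups, by −0.35 against U87 (limma adjusted p = 0.00676), and Diff cells exceeded GSCs by 0.24 (limma adjusted p = 0.0448). Diff cells and U87 overlapped (−0.10, limma adjusted p = 0.356). Of the 6 genes listed as metal-responsive, MTF1 among them and all tested, 0 were called higher and 1 lower in GSCs against U87, then 0 and 1 for Diff cells against U87, and 1 and 0 in Diff cells against GSCs. The 1 called higher was SLC30A1, which is also among the zinc exporters below. Among all genes tested, 17.1%, 12.3% and 8.01% were called in these comparisons. PGF, the placental growth factor gene, was the one lower in both comparisons with U87 (−1.02 and −1.27, limma adjusted p = 0.00504 and 0.00198). With 2.53 TPM in U87, 0.743 in GSCs and 0.443 in Diff cells, PGF passed the filter only through U87, as MT1M did, so these calls are a description.

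SLC30A1, the zinc exporter of the plasma membrane and another MTF1 target, followed a different order from each metallothionein gene. It measured 23.1, 19.0 and 22.7 TPM in U87, 12.99, 11.9 and 15.0 TPM in GSCs, and 29.9, 26.8 and 27.4 TPM in Diff cells. All 3 groups were apart, with GSCs lowest as for MT1E and Diff cells highest as for MT1F. SLC30A1 rose by 1.03 on the log2 scale in Diff cells against GSCs (limma adjusted p = 0.000146), and stood at −0.66 in GSCs against U87 (limma adjusted p = 0.000861) and 0.37 in Diff cells against U87 (limma adjusted p = 0.0228). Of 10 zinc exporters of the SLC30A family, 7 were tested. None was called in GSCs against U87 by limma, beside 17.1% of all genes. At an adjusted p under 0.05 alone 4 were higher and 1 lower, beside 25.3% and 23.3% of all genes, with the same counts at an unadjusted one. SLC30A10, which exports manganese, was the exporter called in Diff cells against U87 (2.53 TPM against 0.629, log2 difference 1.11, limma adjusted p = 0.00036), beside 12.3% of all genes. With 1.26 TPM in GSCs, SLC30A10 passed the filter on mean TPM only through Diff cells, so its call is a description.

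Importers of the SLC39A family held a gene called higher and one called lower. Of 14 such genes 12 were tested. Against U87, 1 was called higher and 1 lower in GSCs, and likewise in Diff cells, beside 17.1% and 12.3% of all genes. SLC39A11 rose from 10.3 TPM ± 1.03 in U87 to 61.1 ± 4.10 in GSCs and 34.5 ± 0.971 in Diff cells (SD, n = 3; log2 differences 2.46 and 1.65, limma adjusted p = 8.26e-08 and 1.15e-06). SLC39A14, which brings zinc, iron and manganese into cells, fell from 115 TPM ± 9.07 in U87 to 39.0 ± 5.40 in GSCs and 54.3 ± 0.950 in Diff cells (SD, n = 3; log2 differences −1.54 and −1.07, limma adjusted p = 2.76e-06 and 3.61e-05). None of the 12 was called in Diff cells against GSCs by limma, beside 8.01% of all genes. There 2 were higher and 3 lower at an adjusted or unadjusted p under 0.05 alone, beside 15% and 19.8% of all genes at the adjusted p.

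Calls among copper handling genes came from the comparisons with GSCs. Of 15 genes 11 were tested, of which 2 were called higher and 0 lower in GSCs against U87, and 0 and 2 in Diff cells against GSCs, beside 17.1% and 8.01% of all genes in either direction. They were the same genes, SLC31A2, a copper transporter of internal membranes, and STEAP2, a metal reductase. SLC31A2 stood at 14.9 TPM ± 2.95 in GSCs against 2.31 ± 1.22 in U87 and 3.19 ± 0.638 in Diff cells (SD, n = 3). STEAP2 stood at 102 TPM ± 24.1, 19.3 ± 1.15 and 37.4 ± 3.13 in the same order (SD, n = 3). Their log2 differences were 2.31 and 2.33 in GSCs against U87 (limma adjusted p = 0.000139 and 3.19e-06), and −1.92 and −1.41 in Diff cells against GSCs (limma adjusted p = 0.000852 and 0.00017). Between Diff cells and U87, 0 genes were called by limma, beside 12.3% of all genes. There 2 were higher and 1 lower at an adjusted or unadjusted p under 0.05 alone, beside 18.9% and 20.5% at the adjusted p.

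Glucocorticoid targets were listed because these hormones also induce metallothionein genes. The receptor gene NR3C1 stood at 51.8 TPM ± 0.914 in U87, 50.8 ± 5.17 in GSCs and 41.1 ± 1.55 in Diff cells (SD, n = 3), and Diff cells differed from U87 by −0.33 (limma adjusted p = 0.0071). Of the 13 genes listed, NR3C1 among them, 11 were tested. In GSCs against U87, KLF9 (2.19, limma adjusted p = 2.08e-06) and HSD11B1 (1.76, limma adjusted p = 0.000175) rose, and ERRFI1, a feedback inhibitor of EGFR, fell by 2.44 on the log2 scale (limma adjusted p = 7.14e-08). KLF9 encodes a transcription factor, and HSD11B1 the enzyme that regenerates cortisol from cortisone. HSD11B1 was under 1 TPM in U87 and Diff cells (0.631 and 0.882 TPM) and passed the filter only through GSCs (4.41 TPM). At an adjusted p under 0.05 alone 8 were higher and 1 lower in GSCs, beside 25.3% and 23.3% of all genes, with a median of 0.44. Diff cells compared with GSCs had 0 called higher and 3 lower, beside 2.66% and 5.36% of all genes. The 3 were DUSP1 (−1.58), HSD11B1 (−1.51) and KLF9 (−1.20), with limma adjusted p = 1.40e-05, 0.000851 and 0.00020. By the adjusted p alone 0 were higher and 10 of the 11 lower in that comparison, NR3C1 among the 10, beside 15% and 19.8% of all genes, with a median log2 difference of −0.45 beside −0.06 over all genes. The gene not lower was FKBP5, a glucocorticoid target, at 2.54 TPM in U87, 5.60 in GSCs and 5.72 in Diff cells. Against U87, Diff cells had 0 called higher and 2 lower, ERRFI1 (−2.69) and the phosphatase gene DUSP1 (−1.67), beside 5.92% and 6.36% of all genes. Among the metallothionein members, MT1X alone had a lower level in Diff cells than GSCs at that adjusted p.

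Genes whose profile was most like that of the metallothionein members were sought among 2575 protein-coding genes whose group means spanned more than 1 on the log2 scale. Likeness was the Pearson r, over 9 libraries, with the mean log2 value of the 5 tested members. The 5 highest were PORCN (r = 0.993), PCK2 (0.989), SLC1A5 (0.985), SEMA4B (0.984) and LAMTOR1 (0.984). PCK2 encodes mitochondrial phosphoenolpyruvate carboxykinase and SLC1A5 a glutamine transporter. PORCN stood at 78.9 TPM in U87, 23.2 in GSCs and 20.9 in Diff cells. All 5 had their highest group mean in U87. MT1M, which was near 0 outside U87, had the largest differences from U87 of the members in this profile. With MT1M alone these genes had r from 0.949 to 0.974, and with the mean of the other 4 members r from 0.635 to 0.70, a check added after seeing the data. The list therefore describes genes like MT1M more than genes like MT2A or MT1F.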

How the data were processed

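RNA-seq of U87, GSCs and Diff cells was available as 1 table of 9 libraries, 3 per group, in which the authors deposited log2(TPM + 1) per gene symbol. The submitters' processing notes name FastQC 0.11.9, Trimmomatic 0.39, HISAT2 2.2.1, featureCounts 2.0.5, R 4.2.0 and GRCh38, and the annotation is not given in the sources used here. The sample records describe Magzol extraction and removal of ribosomal RNA, and the paper's methods Trizol and oligo(dT) beads. Those choices set which RNAs enter the total of each library. All columns were mapped, and 0 columns belonged to other samples.

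Values were returned to TPM, which summed to 1000000 per library. Genes with a mean over 1 TPM (22909 of 60606) entered 1 limma model of 3 groups on log2(TPM + 1), a pseudocount of 1 (lmFit and trended eBayes, limma 3.58.1, R 4.3.3). Benjamini-Hochberg adjustment ran over all genes tested per comparison. Fold differences on this scale understate the change of low genes. The labels do not say that the libraries of a group were separate cultures, so p-values measure the spread between these libraries. TPM keeps no depth. Approximate depths came from the spacing of low values times GENCODE 29 exonic lengths, where about 80% of values fell within 0.1 of a whole number, and no interval or detection limit was derived from it. Ratios were compared by exact permutation tests (scipy 1.17.1). The model was also tested on simulated data. Sums, ratios and plots were made with pandas 2.3.3, matplotlib 3.10.9 and numpy 2.4.6 under Python 3.11.15.

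Members and gene lists were chosen with earlier results of these data known. Genes named are the members, the other metallothionein genes and pseudogenes, up to 4 called genes with the largest change per other list and comparison, the genes heading a list, cell type markers, and the 5 genes most like the members' mean profile. Not every flanking gene is reported here. Flanking genes at the ends of a range and HSPB1 were named after their values were seen. Leaving MT1M out of medians and of the mean profile was chosen after seeing the data. Alternatives changed the eBayes trend, scaling, the pseudocount, the filter, the groups fitted, the call rule, the replicate number as a block and each library left out in turn.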

Additional observations from a re-analysis of the deposited data

How the results depend on the processing

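TPM holds no counts, so the spread between 3 libraries is the measure of precision, and genes of a few TPM, MT1M first among them, rest on few fragments. The number of members called changed as follows. In GSCs against U87 (main value 1) it became 0 with a filter at a mean TPM over 5, which removes MT1M, 2 with TPM rescaled without mitochondrial genes and RN7SL1, 2 with median-ratio scaling and 3 with the adjusted p under 0.05 alone. With libraries left out it lay between 1 and 2, the higher value without GSCs replicate 1, because MT1E then passed the fold limit (−1.10), as it did with rescaling (−1.003), median-ratio scaling (−1.01) and without U87 replicate 3 (−1.03, where MT1M fell under the filter). In Diff cells against U87 (main value 2) it became 1 with the filter at 5 and 4 with the adjusted p alone. With libraries left out it lay between 1, without U87 replicate 3, and 3, without U87 replicate 1, when MT1X passed at −1.01. In Diff cells against GSCs (main value 0) it became 3 with the adjusted p alone, and was 0 whichever library was left out. Over the alternatives 271 of 279 fitted member values kept their direction and their call by both limits, 5 were called anew and 3 moved otherwise: MT2A in GSCs against U87 turned to 0.39 under quantile normalization and to 0.07 without GSCs replicate 3, and MT1M in Diff cells against GSCs went to 0 without GSCs replicate 3. The adjusted p alone crossed 0.05 in 6 of the 279, of which 5 were of MT2A and 1 of MT1X, including MT2A in Diff cells against U87 when only these groups were fitted (0.0334) or GSCs replicate 3 was left out (0.0211). The median over the members in Diff cells against GSCs, −0.14, became 0.07 without MT1M. The cause was not tested. With the replicate number as a block the counts were 1, 2 and 0, with 17.1%, 12.3% and 7.99% of all genes called. Deviations of samples with the same number correlated between −0.04 and 0.05, so no shared deviation was seen. Whether samples with the same number were handled together cannot be told from these values.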

Other observations

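Oxidative stress genes, several of them targets of the transcription factor NFE2L2, moved in both directions. Of 9 such genes 8 were tested, of which 2 were called higher and 2 lower in GSCs compared with U87, and 1 and 1 in Diff cells compared with U87 or with GSCs, beside 17.1%, 12.3% and 8.01% of all genes. NFE2L2 itself did not pass the test in any comparison, at 31.3 TPM ± 0.226 in U87, 29.5 ± 3.46 in GSCs and 33.1 ± 1.62 in Diff cells (SD, n = 3). SLC7A11, the cystine importer that feeds glutathione synthesis, measured 48.1 TPM ± 5.14 in U87, 1.39 ± 0.352 in GSCs and 6.02 ± 1.16 in Diff cells (SD, n = 3). It fell by 4.37 on the log2 scale in GSCs against U87 (limma adjusted p = 1.36e-07) and by 2.81 in Diff cells against U87 (limma adjusted p = 2.41e-06). GCLM, the modifier subunit of the enzyme that starts glutathione synthesis, went the other way in GSCs, at 74.2 TPM ± 12.6 against 18.2 ± 1.08 in U87 and 11.2 ± 0.797 in Diff cells (SD, n = 3). HMOX1, which encodes heme oxygenase, rose by 1.65 in GSCs and by 1.45 in Diff cells against U87 (limma adjusted p = 3.98e-05 and 0.000123). NQO1, a quinone reductase, fell by 1.20 in GSCs against U87 (limma adjusted p = 1.52e-06).

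Heat shock genes, of which 11 of 13 were tested, gave 0 calls by limma for GSCs or Diff cells against U87, beside 17.1% and 12.3% of all genes. At an adjusted p under 0.05 alone 3 were higher and 3 lower in the former comparison and 8 higher and 1 lower in the latter (4 and 4, and 8 and 1, at an unadjusted p), beside 25.3% and 23.3%, and 18.9% and 20.5%, of all genes, with medians of 0.16 and 0.37 on the log2 scale beside 0.02 and −0.04 over all genes. HSPB1, a small heat shock protein gene, measured 1643 TPM ± 31.1 in Diff cells against 876 ± 13.5 in U87 (SD, n = 3; log2 difference 0.91, limma adjusted p = 0.000232). BAG3, a cochaperone, was the 1 gene called in Diff cells against GSCs (1.28, limma adjusted p = 2.48e-05), beside 8.01% of all genes. HSF1, the factor that induces them, stood at 49.6 TPM in U87, 56.0 in GSCs and 51.5 in Diff cells, with limma adjusted p = 0.187 and 0.717 for GSCs and Diff cells against U87.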
